A study of Homo sapiens with 12 samples.

Results

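Metallothioneins are small, cysteine-rich proteins that bind zinc and copper, buffer the free metal in the cell and bind cadmium. Their transcription is controlled mainly by MTF1, a zinc-sensing transcription factor that binds short metal response elements close to the start of each gene, and glucocorticoids are another classical inducer of human MT2A. In breast epithelium and breast cancer cells MT2A is usually the most abundant member of the family. The genes described here are the metallothionein genes MT1A, MT1E, MT1F, MT1G, MT1H, MT1M, MT1X and MT2A together with MTF1, taken by name with all of their probes. Of these 9 genes, 8 had a named probe, out of 20046 genes in the whole table, and 10 probes read them (ILMN_1686664 for MT2A, ILMN_1718766 for MT1F, ILMN_1775170 for MT1X, ILMN_2173611 for the brighter of 2 for MT1E and ILMN_1763828 for MTF1, among others). MT1A is not analysed here.

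RNA was read on 12 Illumina bead arrays. The cells were T47D-Y, derived from the luminal breast cancer line T47D and without progesterone receptor (PR). The receptor was put back from a cDNA in a neomycin-selected vector, as wild-type PR-B (WT) or as PR-B with the K388R mutation (KR), which cannot be modified by SUMO at the exchanged lysine, and the cells given the empty vector are called PR-null. Each line was expanded from a single cell and stands for its receptor alone, so receptor and clone cannot be told apart. After serum starvation, every line received the synthetic progestin R5020 or its ethanol vehicle for 6 h, in duplicate. The groups were therefore WT with R5020, WT with vehicle, KR with R5020, KR with vehicle, PR-null with R5020 and PR-null with vehicle, with 2 arrays each. The p-values cover only the spread within duplicates, and the number of arrays limits the precision.

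All levels below are log2 normalized signals, and differences are in log2 units, in which 1 unit is a doubling. A gene was called higher or lower when the difference was over 0.6 (1.52-fold) with an adjusted p under 0.01 in a limma fit over all probes, and values after ± are standard errors. A signal was taken as above background in a group when both arrays exceeded 6.06. The median signal was 6.01 on every array and replicate arrays correlated at 0.995. PGR, the gene of the receptor, read 7.59 in WT cells with R5020 and 8.55 with vehicle, 9.69 in KR cells with R5020 and 8.91 with vehicle, and was at background in PR-null cells, at 5.44 with R5020 and 5.42 with vehicle. The 9 luminal markers tested were above background in every group, leukocyte markers (PTPRC, CD3D, ITGAM) were in none, and of the fibroblast markers COL1A1 was in all while COL1A2, PDGFRB and DCN were in none. Of the basal markers KRT5 and KRT14 were in none and VIM was in all, with R5020 differences of -0.30 in WT and -0.31 in KR cells that were not called (adjusted p = 0.135 and 0.137). Of the endothelial markers PECAM1 and CDH5 were in none and VWF was in 1 group.

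The signal divided the members in a simple way. MT2A, MT1F, MT1X, MT1E and MTF1 were above background in at least 1 group, whereas MT1G, MT1H and MT1M were above it in none. The probes that did not rise above background, which were both probes of MT1H, those of MT1G and MT1M and the dimmer probe of MT1E, ranged from 5.25 to 6.13 on single arrays. For these genes only changes large enough to leave the background could have been seen. The sequences that the probes read were not examined, and metallothionein genes are so alike that signal may be shared between members.

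The metallothionein genes lie side by side on chromosome 16 in the order MT4, MT3, MT2A, MT1E, MT1M, MT1A, MT1B, MT1F, MT1G, MT1H and MT1X. Promoter sequences were found for 4 of the 9 members, and 3 of them are printed here because they hold matches to the core of the metal response element. Whether MTF1 binds these matches was not tested. MT2A changed with R5020 in WT cells, MT1X was expressed in every group without a called change, and MT1H stayed at background. Each is given 5′ to 3′ from 250 bases before to 50 bases after the annotated start, from RefSeq on build GRCh38.p14. Capitals mark matches to the metal response element core, TGCACNC or TGCGCNC, on either strand.
MT2A promoter, chr16:56608334-56608633, plus strand: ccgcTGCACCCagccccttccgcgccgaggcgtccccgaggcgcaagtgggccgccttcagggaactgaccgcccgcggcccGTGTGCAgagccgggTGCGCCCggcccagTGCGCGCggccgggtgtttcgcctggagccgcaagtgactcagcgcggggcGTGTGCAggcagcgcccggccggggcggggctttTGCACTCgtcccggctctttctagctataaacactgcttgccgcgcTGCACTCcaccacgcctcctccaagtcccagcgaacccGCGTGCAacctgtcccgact
MT1X promoter, chr16:56682220-56682519, plus strand: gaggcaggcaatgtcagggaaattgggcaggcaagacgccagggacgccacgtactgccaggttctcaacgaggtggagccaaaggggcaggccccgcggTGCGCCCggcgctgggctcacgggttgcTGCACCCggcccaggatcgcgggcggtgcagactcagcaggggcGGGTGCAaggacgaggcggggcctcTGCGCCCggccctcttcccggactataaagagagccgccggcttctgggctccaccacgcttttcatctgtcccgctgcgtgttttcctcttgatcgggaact
MT1H promoter, chr16:56669564-56669863, plus strand: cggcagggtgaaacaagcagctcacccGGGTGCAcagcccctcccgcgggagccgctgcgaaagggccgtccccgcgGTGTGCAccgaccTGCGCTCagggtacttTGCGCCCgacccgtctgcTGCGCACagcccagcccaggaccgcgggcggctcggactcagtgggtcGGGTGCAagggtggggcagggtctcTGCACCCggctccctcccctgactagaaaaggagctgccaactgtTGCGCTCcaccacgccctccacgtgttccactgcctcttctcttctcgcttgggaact

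MT2A held 8 matches to the metal response element core, 7 of them before the start, MT1H held 8, all before the start, and MT1X held 4. The MTF1 promoter held 0. Among 35116 promoters of the same length, 29.6% held at least 1 such match, 0.601% held 4 or more and 0.0199% held 8 or more. MT1H thus matched MT2A in the number of cores while its signal was at background. A search on both strands for the AP-1 site TGANTCA, which 7.71% of promoters hold, found 1 match in MT2A and 0 in the other 3. The GC box GGGCGG, bound by SP1 and held by 45% of promoters, was found 2 times in MT2A, 2 times in MT1X and 1 time each in MT1H and MTF1, and 1 of those in MT1X overlapped a metal response element core. The TATA box TATAAA, held by 11.5% of promoters, was found 1 time each in MT2A and MT1X. The hormone receptor half-site AGAACA, held by 14.8% of promoters, and the full site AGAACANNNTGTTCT, held by 0.00285%, were found in none of the 4 windows, which says only that these letters do not occur within these 300 bases.

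**Figure D1:**
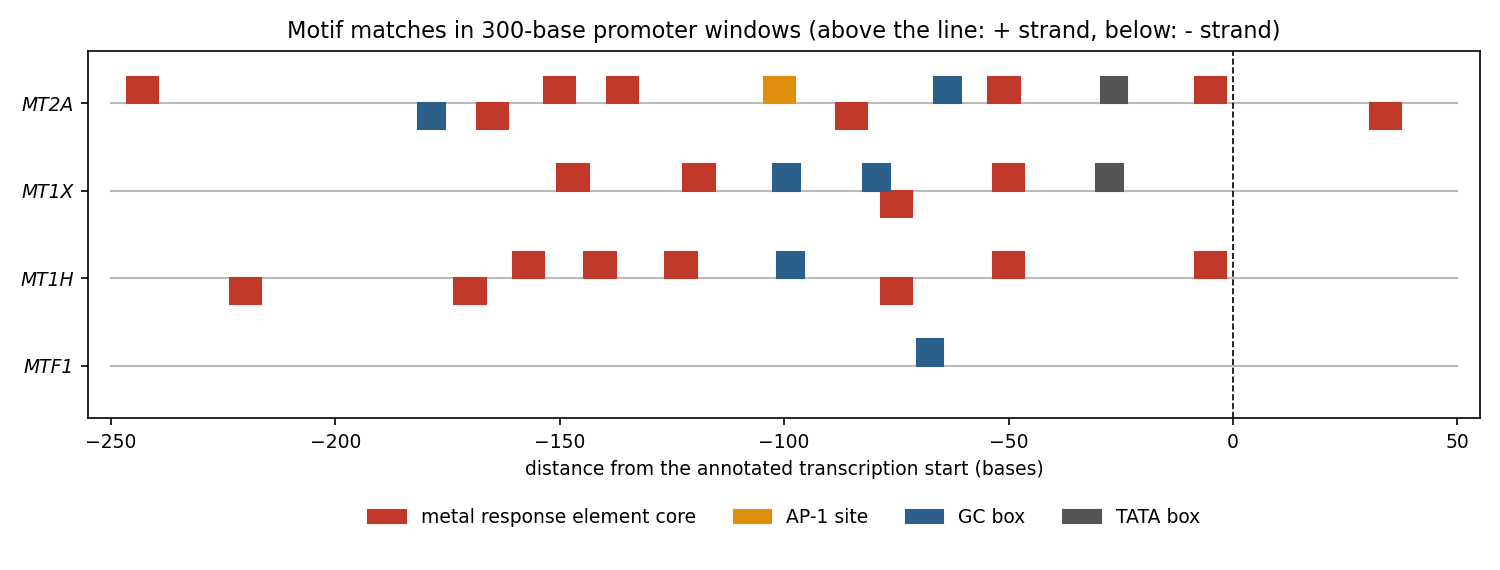
Positions of motif matches in the promoter windows of MT2A, MT1X, MT1H and MTF1, with distance from the annotated start in bases on the horizontal axis and matches on the plus strand above and on the minus strand below each line. MT2A and MT1H each carry 8 matches to the metal response element core, MT1X carries 4 and MTF1 carries 0.

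MT2A was called higher with R5020 in WT cells and was not called in KR or PR-null cells. The arrays of WT cells read 9.66 and 9.92 with R5020, against 8.93 and 8.90 with vehicle. Both R5020 arrays lay above both vehicle arrays, and the difference was 0.88 ± 0.117, a 1.84-fold rise (95% interval 0.65 to 1.12, adjusted p = 1.36e-07). In KR cells MT2A read 8.98 and 9.03 with R5020, against 8.95 and 8.80 with vehicle. The R5020 arrays were again the higher ones, but the difference of 0.13 was not called (95% interval -0.11 to 0.37, adjusted p = 0.705). PR-null cells read 9.96 and 9.97 with R5020, against 9.89 and 10.22 with vehicle, with the R5020 arrays between the vehicle arrays (difference -0.09, 95% interval -0.32 to 0.15, adjusted p = 0.998). Since RNA was taken from whole cultures, more expressing cells and more RNA per cell cannot be told apart.

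The R5020 effects on MT2A were then compared between lines. The effect in WT cells exceeded that in PR-null cells by 0.97 ± 0.165 (adjusted p = 4.67e-05). The effect in KR cells exceeded that in PR-null cells by 0.22 (95% interval -0.12 to 0.55, adjusted p = 0.702), which was not called. The effect in KR cells was smaller than that in WT cells by a difference of -0.75 ± 0.165 (95% interval -1.08 to -0.42, adjusted p = 0.00789). This last call is close to its limit: leaving out any 1 of 7 of the 8 WT and KR arrays ended it, with differences of -0.62 to -0.83 and adjusted p of 0.0144 to 0.116, and it held when WT R5020 replicate 1 was left out.

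MT1F, a further isoform of the cluster, was likewise called higher with R5020 in WT cells and not in KR cells. WT cells read 8.39 and 8.40 with R5020, against 7.60 and 7.61 with vehicle. The duplicates were nearly superimposed, and the difference was 0.79 ± 0.108, a 1.73-fold rise (95% interval 0.57 to 1.00, adjusted p = 2.72e-07). KR cells read 7.75 and 7.79 with R5020, against 7.65 and 7.72 with vehicle, a difference of 0.08 that was not called although the arrays did not overlap (95% interval -0.13 to 0.30, adjusted p = 0.823). PR-null cells read 7.41 and 7.52 with R5020, against 7.16 and 7.25 with vehicle. These arrays did not overlap either, and the difference of 0.25 was not called (95% interval 0.04 to 0.47, adjusted p = 0.975).

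The excess of the WT effect over the PR-null effect was 0.53 ± 0.152 for MT1F (adjusted p = 0.0267) and was not called. The effect in KR cells differed from that in WT cells by -0.70 ± 0.152 (95% interval -1.01 to -0.40, adjusted p = 0.00639) and from that in PR-null cells by -0.17 (95% interval -0.48 to 0.14, adjusted p = 0.762). The call between KR and WT cells was lost on leaving out any 1 of the 8 arrays, with differences of -0.67 to -0.74 and adjusted p of 0.0202 to 0.0471.

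**Figure D2:**
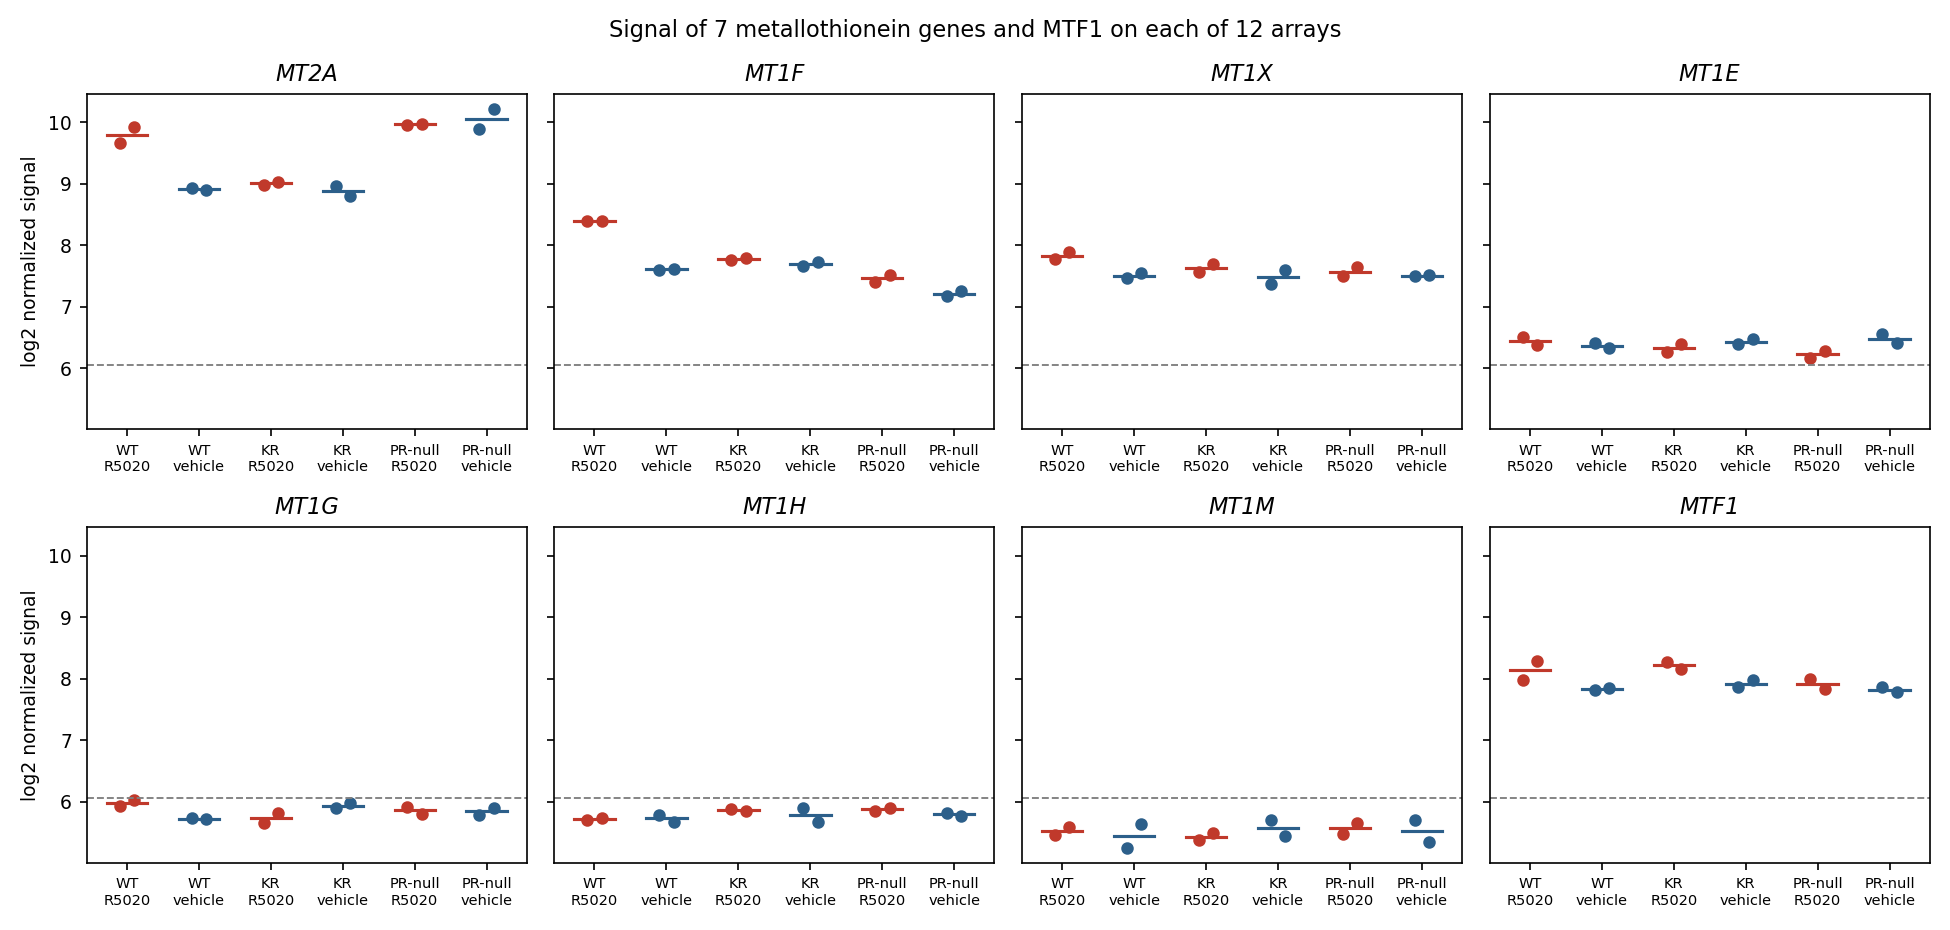
log2 normalized signal of the brightest probe of each of the 8 genes on each of the 12 arrays, with R5020 arrays in red, vehicle arrays in blue, group means as horizontal bars and the background limit of 6.06 as a dashed line. MT2A and MT1F stand higher in WT cells with R5020 than with vehicle (9.79 against 8.91, and 8.39 against 7.60), and MT1G, MT1H and MT1M lie at the limit or below it.

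MT1X, another widely expressed isoform, moved less. WT cells read 7.77 and 7.88 with R5020, against 7.46 and 7.54 with vehicle. The groups did not overlap, but the difference of 0.32 ± 0.112 was not called (95% interval 0.10 to 0.55, adjusted p = 0.063). The differences were 0.15 in KR cells (7.55 and 7.70 with R5020, against 7.37 and 7.59 with vehicle, adjusted p = 0.631) and 0.07 in PR-null cells (7.50 and 7.64 with R5020, against 7.49 and 7.51 with vehicle, adjusted p = 0.998). The R5020 and vehicle arrays overlapped in both of these lines, and the effects in KR and WT cells were not called different (difference -0.18, 95% interval -0.50 to 0.14, adjusted p = 0.834).

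MT1E read close to background. Its brighter probe gave 6.5 and 6.38 in WT cells with R5020, against 6.40 and 6.33 with vehicle, a difference of 0.08 (adjusted p = 0.818). In KR cells it gave 6.26 and 6.39 with R5020, against 6.38 and 6.47 with vehicle, a difference of -0.10 (adjusted p = 0.776), and in PR-null cells 6.16 and 6.28 with R5020, against 6.55 and 6.40 with vehicle, a difference of -0.26 (adjusted p = 0.975). The arrays of the WT and KR lines overlapped between treatments and those of PR-null cells did not. MT1G exceeded the background limit on 0 arrays, so no differences are given for it. Neither the probes of MT1H nor those of MT1G and MT1M were called in any of the 12 comparisons.

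MTF1, the regulator, was expressed in every group and was not called in any comparison. WT cells read 7.98 and 8.29 with R5020, against 7.81 and 7.85 with vehicle (difference 0.31 ± 0.114, adjusted p = 0.0938). KR cells read 8.27 and 8.16 with R5020, against 7.86 and 7.97 with vehicle (difference 0.30, adjusted p = 0.135). In both lines each R5020 array lay above each vehicle array, and the effects in KR and WT cells differed by -0.01 (95% interval -0.33 to 0.32, adjusted p = 0.998). PR-null cells read 7.98 and 7.83 with R5020, against 7.85 and 7.78 with vehicle, with overlap (difference 0.09, adjusted p = 0.996). MTF1 mRNA says nothing about the zinc-dependent activity of the protein.

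Counted together, 2 of the 8 members with a probe were called higher with R5020 in WT cells, where 3.3% of all genes and 5.2% of the genes above background were called higher. In KR cells 0 of the 8 were called (limma, with 1 at an unadjusted p under 0.05), where 2.7% of all genes were called higher and 1.38% lower. In PR-null cells 0 were called, with 2 at an unadjusted p under 0.05, where 0% of all genes were called either way. For the excess of the WT effect over the PR-null effect the count was 1 higher, against 3.09% of all genes and 4.86% of those above background. For the excess of the KR effect over the PR-null effect it was 0, also at an unadjusted p under 0.05, against 2.47% of all genes higher and 1.27% lower. For the KR effect minus the WT effect it was 2 lower, against 0.389% of all genes and 0.614% of those above background. In WT cells 5 of the 8 had an unadjusted p under 0.05 (MT2A, MT1F, MT1X, MTF1 and MT1G, the last at background). That number was 3 for the excess of the WT over the PR-null effect and 3 for the KR effect minus the WT effect. The median R5020 difference of the 8 members was 0.28 in WT cells, 0.08 in KR cells and 0.05 in PR-null cells, against medians over all genes of -0.01, -0.02 and 0.00. With so few members, the counts of calls describe MT2A and MT1F and not the family. The WT and KR effects are each set against the same PR-null arrays where that line is named.

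**Figure D3:**
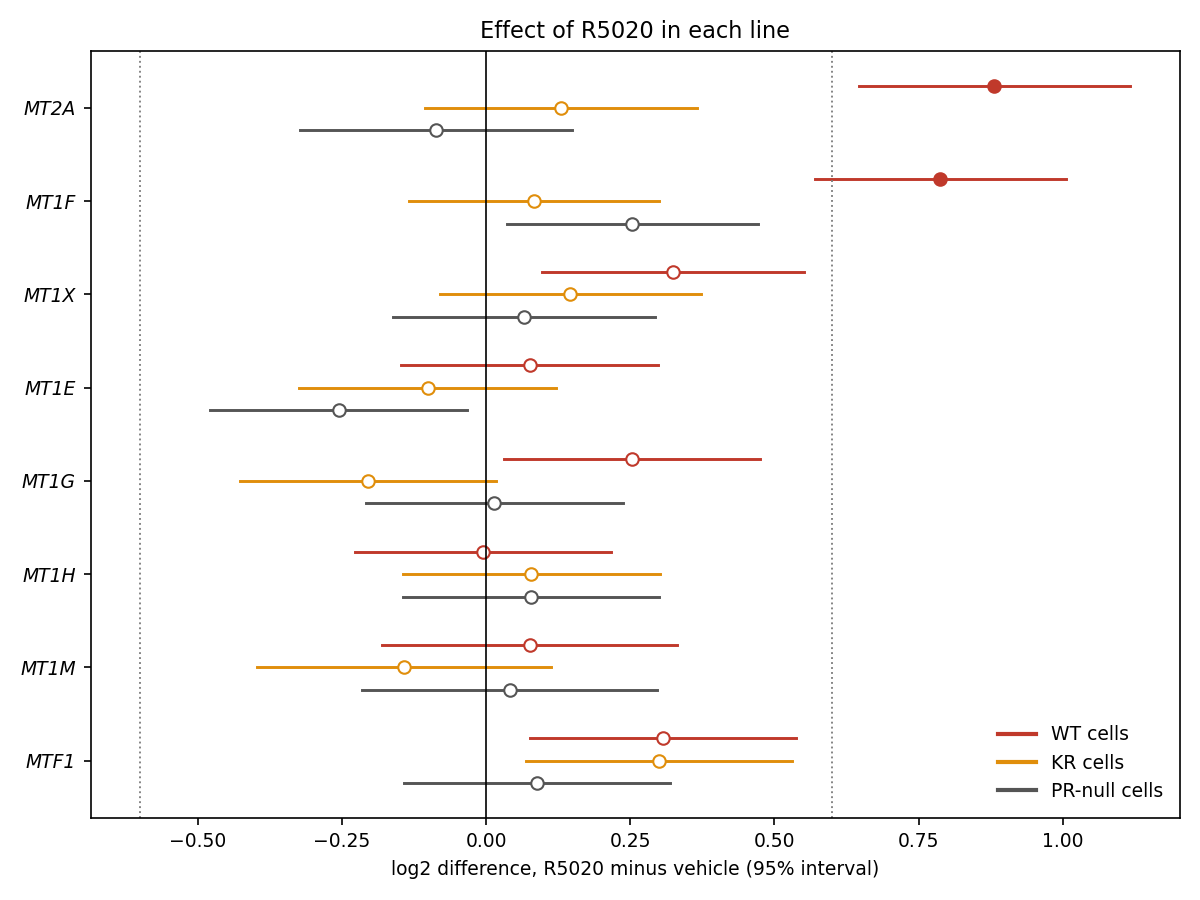
Difference between R5020 and vehicle in log2 units for the 8 genes in WT, KR and PR-null cells, with 95% intervals as bars, filled points for called differences and dotted lines at the threshold of 0.6 in either direction. The filled points are MT2A at 0.88 and MT1F at 0.79 in WT cells.

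Luminal markers and PGR also changed with R5020, in both the WT and the KR line. Of the 9 luminal markers, 5 were called lower with R5020 in WT cells, where 2% of all genes were, 4 in KR cells, where 1.38% were, and 0 in PR-null cells. The summed linear signal of the 9 luminal markers was 37824 to 40072 in WT cells with R5020 against 51735 to 54261 with vehicle, and 41326 to 43908 in KR cells with R5020 against 59454 to 59700 with vehicle. In PR-null cells it was 57083 to 57120 with R5020 against 53218 to 60506 with vehicle. PGR itself was called lower with R5020 in WT cells (-0.97, limma, adjusted p = 4.46e-09) and higher in KR cells (0.78, adjusted p = 8.97e-07). With R5020 it was 9.69 in KR cells against 7.59 in WT cells. The part of either in the metallothionein results was not tested.

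The lines also differed in MT2A before any hormone was given. With vehicle, WT cells read 8.93 and 8.90 and PR-null cells 9.89 and 10.22, a difference of -1.14 ± 0.117, or 2.21-fold lower in WT cells (adjusted p = 4.75e-10). KR cells read 8.95 and 8.80 with vehicle, a difference from PR-null cells of -1.18 ± 0.117, or 2.26-fold lower in KR cells (adjusted p = 2.3e-10). KR and WT cells were not called different with vehicle (difference -0.04, 95% interval -0.27 to 0.20, adjusted p = 0.957). MT2A was the 1 member called lower than in PR-null cells in each of these comparisons, where 1.69% of all genes (2.66% of those above background) were called lower in WT cells and 1.59% (2.51%) in KR cells.

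With R5020 the lines stood in another order. WT cells were not called different from PR-null cells (9.66 and 9.92 against 9.96 and 9.97, difference -0.17, 95% interval -0.41 to 0.06, adjusted p = 0.447). KR cells stayed lower than PR-null cells (8.98 and 9.03 against 9.96 and 9.97, difference -0.96 ± 0.117, adjusted p = 1.41e-08) and were lower than WT cells (8.98 and 9.03 against 9.66 and 9.92, difference -0.79 ± 0.117, adjusted p = 4.27e-06). From high to low, the group means of MT2A were 10.05 in PR-null cells with vehicle, 9.97 in PR-null cells with R5020, 9.79 in WT cells with R5020, 9.0 in KR cells with R5020, 8.91 in WT cells with vehicle and 8.87 in KR cells with vehicle. No called difference separated the neighbours among the first 3 groups, a called gap followed between WT and KR cells with R5020, and the last 3 means lay within 0.13 of each other, which is about the replicate SD of this probe (0.130).

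MT1F was ordered differently, with PR-null cells at the bottom. With vehicle, WT cells read 7.60 and 7.61 against 7.16 and 7.25 in PR-null cells (difference 0.40, adjusted p = 0.0141), and KR cells read 7.65 and 7.72 (difference from PR-null cells 0.48, adjusted p = 0.00252). Both differences were under the threshold of 0.6, although the arrays of either line lay above those of PR-null cells. With R5020, WT cells were called higher than PR-null cells (8.39 and 8.40 against 7.41 and 7.52, difference 0.93 ± 0.108, adjusted p = 3.56e-09), KR cells were not (7.75 and 7.79, difference 0.31, adjusted p = 0.0603), and KR cells were called lower than WT cells (difference -0.62 ± 0.108, adjusted p = 7e-05). The means ran from 8.39 in WT cells with R5020 through 7.77 in KR cells with R5020, 7.69 in KR cells with vehicle, 7.60 in WT cells with vehicle and 7.46 in PR-null cells with R5020 to 7.21 in PR-null cells with vehicle. Of the steps between neighbours that were tested, the one between WT and KR cells with R5020 was called. Both genes were called higher with R5020 in WT cells. Under vehicle the receptor-bearing lines read lower than PR-null cells for MT2A and higher for MT1F, for MT1F by less than the threshold.

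With R5020, 1 member (MT1F) was higher in WT than in PR-null cells, against 4.25% of all genes and 6.7% of those above background. For KR against PR-null cells 1 member (MT2A) was lower, against 3.05% and 4.82%, and for KR against WT cells 2 members (MT2A and MT1F) were lower, against 1.36% and 2.14%. Between KR and WT cells with vehicle no member was called, or had an unadjusted p under 0.05, against 0.374% of genes higher and 0.479% lower. MT1X, MT1E and MTF1 were not called between any 2 lines. Under vehicle MT1X read within 7.37 to 7.59 in all 3 lines, and its largest difference between lines was 0.26, between WT and PR-null cells with R5020 (adjusted p = 0.154). For MTF1 the largest was 0.31, between KR and PR-null cells with R5020 (adjusted p = 0.082).

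**Figure D4:**
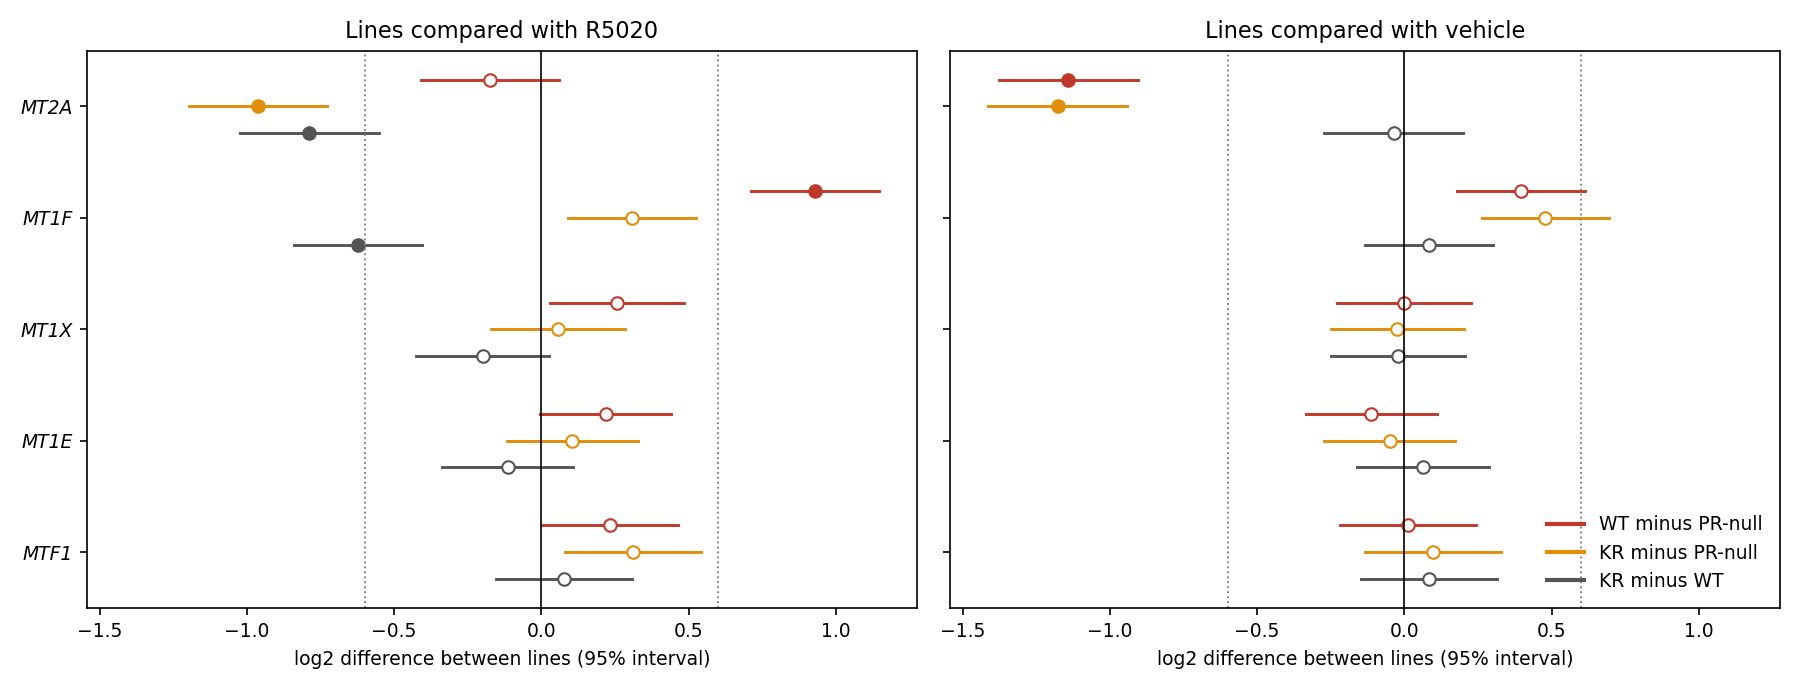
Differences between lines in log2 units for the 5 genes above background, with R5020 in the left panel and with vehicle in the right panel, with 95% intervals as bars, filled points for called differences and dotted lines at the threshold of 0.6 in either direction. With vehicle MT2A is lower in WT and KR cells than in PR-null cells (-1.14 and -1.18), and with R5020 both MT2A and MT1F are lower in KR than in WT cells (-0.79 and -0.62).

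The similarity of the profiles was measured as the root mean square difference between the 6 group means of 2 genes, each profile centred on its own mean. Among the 5 members above background the smallest value was that of MT1X and MTF1 (0.10) and the largest that of MT2A and MT1F (0.667). The range of the group means was 1.18 for MT2A and 1.18 for MT1F, against 0.35 for MT1X, 0.26 for MT1E and 0.40 for MTF1. The measure is not scaled, so profiles with small ranges give small values whatever their shape. The value for MT1X and MTF1 is about their replicate SDs (0.097 and 0.114) and does not show that these 2 genes move together.

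Among 12702 other genes above background, the profile closest to MT2A was that of NABP1 (0.108), which encodes a single-stranded DNA binding protein. NABP1 read 8.89 and 8.89 in WT cells with R5020, against 8.08 and 7.91 with vehicle, and 8.03 and 8.03 in KR cells with R5020, against 8.01 and 8.05 with vehicle. In PR-null cells it read 9.40 and 9.25 with R5020, against 9.32 and 9.21 with vehicle. Like MT2A it was highest in PR-null cells, and its WT arrays with R5020 lay above those with vehicle. NABP1 was chosen for this profile, so that its values are a description and no test of them is given here. The next were CAPN8, a calpain protease (0.154), RAB31, a small GTPase (0.165), TUBB2B, a beta-tubulin (0.172), and ZC3H12C (0.188). For MT1X the 5 closest genes were ZNF655, LOC101927141, TXNDC16, RAB5B and CDR2, all within 0.0323 to 0.0332. For MT1F they were ATMIN (0.0787), FZD9, ARHGAP17, IFT122 and SYNJ2 (0.0963).

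The genes that move the same metals were examined next, beginning with SLC30A1, the plasma membrane zinc exporter and itself a known MTF1 target. SLC30A1 read 8.53 and 8.66 in WT cells with R5020, against 7.94 and 7.98 with vehicle. The groups did not overlap and the difference was called (0.64 ± 0.109, adjusted p = 2.64e-05). The other probe of SLC30A1 gave 0.60 in WT cells and 0.56 in KR cells, and neither was called. In KR cells the brighter probe read 8.70 and 8.83 with R5020, against 8.35 and 8.43 with vehicle (difference 0.37, adjusted p = 0.0269), and in PR-null cells 8.92 and 8.91 with R5020, against 9.03 and 8.90 with vehicle (difference -0.05, adjusted p = 0.998). Without WT R5020 replicate 2 the WT difference was 0.57 and was not called. The WT effect exceeded the PR-null effect by 0.69 ± 0.155 (adjusted p = 0.00268), a call that was lost on leaving out 5 of the 8 arrays one at a time (adjusted p up to 0.0269), and the KR and WT effects were not called different (-0.26, 95% interval -0.57 to 0.05, adjusted p = 0.672). As with MT2A, SLC30A1 was lower in WT than in PR-null cells with vehicle (7.94 and 7.98 against 9.03 and 8.90, difference -1.004 ± 0.109, adjusted p = 2.52e-09). In KR cells with vehicle it was 0.57 lower than in PR-null cells, under the threshold (difference -0.57, adjusted p = 0.000306).

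Of the 10 zinc exporters of the SLC30 family, 6 were above background. SLC30A1 was the 1 called with R5020 in WT cells, where 3.3% of all genes were called higher. In KR cells 0 were called (limma), with 3 at an unadjusted p under 0.05, where 2.7% of all genes were called higher and 1.38% lower. Of the 14 zinc importers of the SLC39 family, 11 were above background and SLC39A14, which carries zinc and iron into cells, was the 1 called in either line. It was called higher in both, against 3.3% of all genes in WT cells and 2.7% in KR cells. SLC39A14 read 8.99 and 9.14 in WT cells with R5020, against 7.44 and 7.13 with vehicle, and 9.60 and 9.92 in KR cells with R5020, against 7.21 and 7.19 with vehicle. It rose by 1.78 ± 0.119 in WT cells (adjusted p = 4.65e-16) and by 2.56 ± 0.119 in KR cells (adjusted p = 2.24e-21), and the KR effect was the larger by 0.78 ± 0.168 (adjusted p = 0.00639). This call was lost on leaving out 6 of the 8 arrays one at a time, with differences of 0.62 to 0.94. It was also lost in the fit on the mean of all probes of a gene, although SLC39A14 has 1 probe. The difference had the opposite sign to those of MT2A and MT1F. In PR-null cells it read 7.75 and 7.58 with R5020, against 7.67 and 7.68 with vehicle.

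All 9 copper-handling genes were above background, and SLC31A2, a copper transporter of endosomes and lysosomes, was called with R5020 in both receptor-bearing lines. SLC31A2 was the 1 of the 9 called in each, where 3.3% of all genes were called higher in WT cells and 2.7% in KR cells. It read 10.81 and 10.77 in WT cells with R5020, against 8.67 and 8.80 with vehicle (difference 2.05 ± 0.115, adjusted p = 1.31e-18). In KR cells it read 9.90 and 10.12 with R5020, against 8.27 and 8.42 with vehicle (difference 1.67 ± 0.115, adjusted p = 1.79e-15), and the KR and WT effects were not called different (-0.39, 95% interval -0.72 to -0.06, adjusted p = 0.414). PR-null cells read 8.77 and 8.79 with R5020, against 8.88 and 8.59 with vehicle, with overlap. Median R5020 differences of the zinc exporters, zinc importers and copper-handling genes were 0.03, -0.11 and 0.17 in WT cells and 0.08, 0.02 and 0.02 in KR cells, against medians over all genes of -0.01 in WT cells and -0.02 in KR cells.

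**Figure D5:**
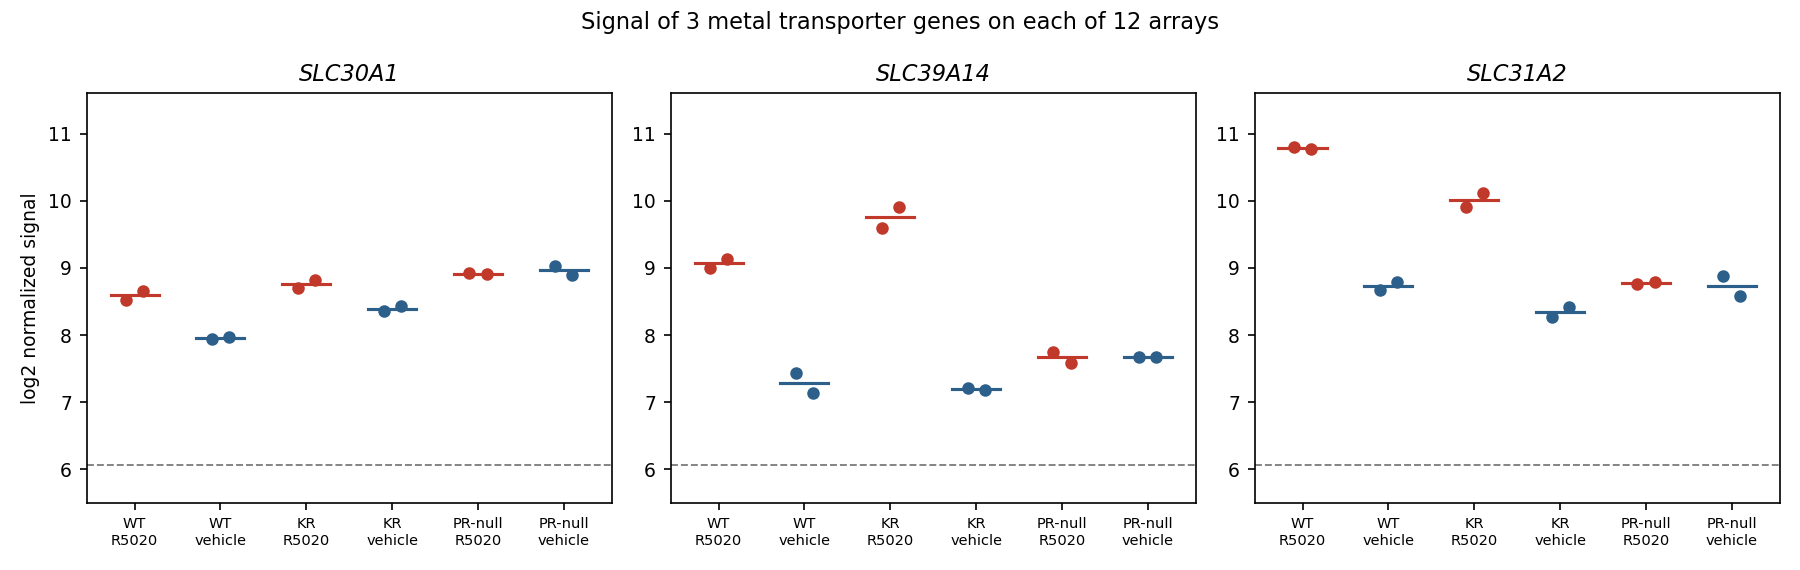
log2 normalized signal of the zinc exporter SLC30A1, the zinc importer SLC39A14 and the copper transporter SLC31A2 on each of the 12 arrays, with R5020 arrays in red, vehicle arrays in blue, group means as horizontal bars and the background limit of 6.06 as a dashed line. SLC39A14 and SLC31A2 are higher with R5020 in WT and KR cells (by 1.78 and 2.56, and by 2.05 and 1.67), and none of the 3 was called in PR-null cells.

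Genes of the metal and oxidative stress response gave no common direction. Of 13 with a probe, 12 were above background. With R5020, 2 were called lower in WT cells, against 2% of all genes. They were TXNRD1, the cytosolic thioredoxin reductase (-1.26 ± 0.112, adjusted p = 3.72e-12), and the heat shock gene HSPA1A (-1.05 ± 0.113, adjusted p = 8.56e-10). In KR cells TXNRD1 was lower (-0.95 ± 0.112, adjusted p = 1.14e-08) and GCLC, a subunit of the enzyme that makes the glutathione precursor, was higher (0.92 ± 0.112, adjusted p = 2.09e-08), a call not made on the mean of all its probes. The shares of all genes in KR cells were 1.38% called lower and 2.7% called higher. GCLC in WT cells (0.58, adjusted p = 0.000165) and HSPA1A in KR cells (-0.50, adjusted p = 0.0019) moved the same way, under the threshold of 0.6. The KR and WT effects were not called different for GCLC (0.34, adjusted p = 0.505) or HSPA1A (0.55, adjusted p = 0.0947). HMOX1, a standard marker of heavy metal exposure, was not among the called genes in either line. In PR-null cells 0 of 83 genes were called with R5020 (limma), counting the metal transporter, stress, steroid response and marker lists and the further metallothionein genes, with 2 at an unadjusted p under 0.05.

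The further metallothionein genes with a probe, which were MT1B, MT1L, MT1IP, MT3 and MT4, were above background in no group, and 0 were called in the 12 comparisons (limma), with 1 of 60 tests at an unadjusted p under 0.05.

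Steroid response genes, most of them inducible by glucocorticoids as MT2A is, show how other targets behaved on the same arrays. Of 10 genes, 9 were above background and 7 were called higher in each of the WT and KR lines, against 3.3% and 2.7% of all genes. The median difference was 1.34 in WT cells and 1.26 in KR cells. FKBP5, a receptor co-chaperone, rose by 2.66 ± 0.124 in WT cells (adjusted p = 2.85e-21) and by 3.36 ± 0.124 in KR cells (adjusted p = 6.26e-25). The FKBP5 effects were not called different between KR and WT cells (0.71 ± 0.176, adjusted p = 0.0286). For the KR effect minus the WT effect, 3 of the 10 genes were called higher, against 0.619% of all genes, and 1 lower, against 0.389%. The 3 were SGK1, ZBTB16 (1.02 ± 0.182, adjusted p = 0.000456) and KLF9 (0.77 ± 0.158, adjusted p = 0.00373), both transcription factors. Leaving out 1 array ended the ZBTB16 call for 2 and the KLF9 call for 5 of the 8 arrays. The ZBTB16 call was also lost on the mean of all its probes, of which ILMN_1750496 gave -0.08 in WT and -0.05 in KR cells. For SGK1, a kinase, the KR effect exceeded the WT effect by 0.94 ± 0.166 (adjusted p = 0.00043), or by 0.75 without WT R5020 replicate 2, which was not called. CEBPD, a transcription factor, was the member of this list whose KR effect was called smaller, with 1.54 in KR cells, 2.35 in WT cells and a difference of -0.82 ± 0.159 (adjusted p = 0.00176). Leaving out 1 array ended that call for 4 of the 8 arrays, with adjusted p up to 0.0349. CEBPD was still called higher in KR cells, unlike MT2A and MT1F.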

How the data were processed

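Samples were T47D-Y cells with empty vector, WT or KR PR-B, exposed to R5020 or vehicle (6 h). The labels give 6 groups of 2 arrays. The deposited table holds log2 values: the authors log2-transformed and quantile-normalized the bead intensities in lumi, whose version is not given in the sources used here. A deposited table of non-normalized signals was not used, because no label explains its 12 coded sample columns. Of 47231 probes, 30113 carried 1 gene symbol, 8 several and 17110 none, and 30074 had a gene identifier found in the RefSeq table. Named probes covered 20046 genes, each represented by the probe of highest mean signal.

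All probes were fitted with limma 3.58.1 in R 4.3.3 as 6 group means and 12 contrasts, with empirical Bayes (37.1 prior and 6 residual degrees of freedom) and Benjamini-Hochberg adjustment over all probes of a contrast. The thresholds (log2 difference over 0.6, adjusted p under 0.01) are those of the study. The background limit, 6.06, is the 95th percentile of 437 olfactory receptor probes. Every probe of the listed genes was tested, and the probes that did not rise above background are given by their range of signals only. From each other list up to 4 called genes are named, and the 5 genes most like MT2A and MT1X are given. The likeness to MT1F and the mentions of HMOX1, which was not called, and of KLF9 and ZBTB16 were added after their values were seen. A list of genes next to the cluster is not reported here. The members and lists were chosen with earlier results of these data known.

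Promoter windows (250 bases before and 50 after the start) came from RefSeq, GRCh38.p14. The fit was tested on simulated arrays of the same spread: among 47231 probes, with 50 changed at each size in the WT effect, differences of 0.4, under the threshold, were called for 2%, of 0.8 for 90% and of 1.2 or 2 for 100%, with 0 false calls. Alternatives tried were a replicate block, a filter on dim probes, normexp correction (offset 50), cyclic loess, an intensity trend in the variance prior, the compared groups alone, the mean of all probes of a gene, a threshold of 1 and leaving out each array. The same alternatives other than the threshold were run for the other named genes, a choice made after seeing the data.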

Additional observations from a re-analysis of the deposited data

Results flagged for a closer look

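The R5020 effect on MT2A was larger in WT than in PR-null cells by 0.97 log2 units (limma, adjusted p = 4.67e-05). It was smaller in KR than in WT cells by a difference of -0.75 (adjusted p = 0.00789). For MT1F the R5020 effect was likewise smaller in KR than in WT cells, by a difference of -0.70 (adjusted p = 0.00639). Each was picked out because the effect of the same treatment differed between lines in a test of the difference itself. The calls between KR and WT cells are close to their limit. Leaving out most single arrays ended the one for MT2A, and leaving out any single array ended the one for MT1F. WT arrays lay higher with R5020 than with vehicle on 2 of 2 arrays for both genes. That order is a description, and the share of all genes with such an order is not given here.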

How the results depend on the processing

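No called value changed sign in 1524 alternatives run over 120 results. Of these alternatives 1464 were counted as unchanged, which includes small uncalled differences whose sign did change. For MT1H the KR effect minus the WT effect was 0.08 and ran from -0.07 to 0.20 over the alternatives. With the threshold raised to a log2 difference of 1, the count of called members was 0 in place of 2 for the WT R5020 effect, 0 for the excess of the WT over the PR-null effect, 0 for the KR effect minus the WT effect, and with R5020 it was 0 for WT against PR-null, 0 for KR against PR-null and 0 for KR against WT cells, since every such difference lay between 0.6 and 1. For the KR effect minus the WT effect, the mean of all probes of a gene left 1 member (MT1F, as MT2A had an adjusted p of 0.0291 at the same difference, MT2A having 1 probe). That fit had 12.7 prior degrees of freedom in place of 37.1 and adjusted over 37164 features in place of 47231, and which of these moved the p was not tested. For the KR effect minus the WT effect, leaving out 1 array gave 0 to 1 members. For KR against WT cells with R5020, normexp correction left 1 (MT2A, as MT1F moved to -0.59).

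No pairing of replicate numbers was found. Correlations of same-numbered arrays, as deviations from their group means, were -0.0468 to 0.0814 over 12587 probes in 15 pairs of groups. A fit with the replicate number as a block changed no call among the members: 2 were higher in the WT effect, and MT2A and MT1F kept adjusted p of 0.00807 and 0.00706 in the KR effect minus the WT effect. Measured differences under 0.6 were never called, by the rule used, and in simulated data 90% of changes of 0.8 in the WT effect were called. The differences between effects, which have larger standard errors, were not simulated, so that share does not apply to them. MT1G, MT1H and MT1M were not above background.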
